A study of Rattus norvegicus with 10 samples.

Results

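The genes of 5 molecular chaperones of the rat kidney, Hspa5 and Hsp90b1 of the endoplasmic reticulum, Hspd1 of the mitochondria, and Hspa8 and Hspb1 of the cytosol, were followed through 3 days without water. The 5 genes were taken by Ensembl identifier and chromosome from the 32623 genes of a count table, and all 5 were found and passed the filter on low counts. The rats were males of the outbred Sprague-Dawley strain, and the sources used here do not give their age. The control group (5 rats) drank freely. The dehydrated group (5 rats) had no water for 72 hours, and no other treatment is named for either group. Polyadenylated RNA was sequenced as 1 library per rat to search for genes of osmoregulation, the control of body water and salt.

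Chaperones bind unfolded or damaged proteins and help them to fold, to refold or to be cleared. Heat shock transcription factors can raise cytosolic and several mitochondrial chaperones when proteins misfold, and the unfolded protein response raises those of the endoplasmic reticulum. The kidney medulla is held at high and changing salt and urea concentrations, and small heat shock proteins such as Hspb1 are known to be abundant there.

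Libraries held 29454213 to 35898689 assigned fragments, and the 5 chaperones together took 0.211% to 0.251% of them. Both replicates numbered 6 have library names lettered for the opposite group. Groups follow the titles and treatment labels, and results are also given without both of these libraries. The count files carry no gene symbols, so kidney cell type markers and further chaperones were not analysed here. In whole kidney, fewer cells of a type and less RNA per cell cannot be told apart.

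The promoters of the 5 genes are shown to describe which classes of DNA element they carry. Promoter windows, 250 bases before to 50 bases after the annotated start, were taken from RefSeq (assembly GRCr8, a later build than the Rnor_6.0 of the counts), and all 5 genes matched by symbol. The search for 3 motifs covered both strands. The endoplasmic reticulum stress element, which the unfolded protein response factors bind, was searched as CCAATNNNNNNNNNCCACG. The heat shock element was searched as 3 alternating units, GAANNTTCNNGAA, or as a pair of units, GAANNTTC or TTCNNGAA, which overlap the longer form. The tonicity-responsive enhancer, bound by the hypertonicity factor Nfat5, was searched by its consensus. Stretches with matches follow, 5′ to 3′ on the strand of the gene, with the fixed letters of the element in capitals.
Hspa5, chr3:38452949-38453015 (plus strand): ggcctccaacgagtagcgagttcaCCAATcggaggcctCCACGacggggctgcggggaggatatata
Hsp90b1, chr7:23012427-23012493 (minus strand): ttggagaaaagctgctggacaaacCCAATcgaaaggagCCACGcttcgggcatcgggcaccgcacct
Hsp90b1, chr7:23012323-23012389 (minus strand): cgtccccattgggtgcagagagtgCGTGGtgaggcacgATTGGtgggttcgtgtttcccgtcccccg
Hspd1, chr9:64084238-64084287 (minus strand): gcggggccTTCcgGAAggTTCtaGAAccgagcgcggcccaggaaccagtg
Hspa8, chr8:50080277-50080337 (plus strand): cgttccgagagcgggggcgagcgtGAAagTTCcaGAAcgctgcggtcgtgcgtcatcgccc
Hspa8, chr8:50080435-50080495 (plus strand): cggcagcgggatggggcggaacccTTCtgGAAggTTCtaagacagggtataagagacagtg
Hspb1, chr12:26432379-26432454 (minus strand): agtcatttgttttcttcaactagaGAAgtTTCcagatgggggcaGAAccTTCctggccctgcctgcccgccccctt

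The endoplasmic reticulum stress element occurred in the windows of both endoplasmic reticulum chaperones and in none of the other 3. Hspa5 held 1 match, with its first base 43 bases before the start. Hsp90b1 held 2, beginning 176 and 72 bases before the start, the nearer one on the opposite strand. Of all 33469 RefSeq promoter windows of this length, 22 (0.0657%) held this element. Besides the 2 members, these belonged to Calr, Calr4, Canx, Creld2, Derl3, Dnajc3, Ero1b and Xbp1, to Ankmy2 (2 windows), Birc5, Foxd4, Hnrnpa3, Pan2, Ppm1l, Zfand2a and Zfp57, and to 3 genes without a name. Calr and Canx are lectin chaperones of the endoplasmic reticulum and Xbp1 is a transcription factor of the unfolded protein response, and no enrichment was tested. Heat shock elements of 3 units occurred in Hspd1 and Hspa8, 2 matches each, and in 0.798% of all windows. The 2 matches of Hspd1 overlap on opposite strands in 1 stretch, and those of Hspa8 lie apart. Hspb1 held pairs of units at 129 and 109 bases before the start, a form found with GAA first in 8.59% of all windows, and no 3-unit match. One match to the tonicity-responsive enhancer, on the opposite strand, overlapped the first of these pairs, and 5.98% of all windows held such a match. A match of letters is a description and does not show that a factor binds there.

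Hspb1, the small heat shock protein that binds unfolded proteins and actin filaments, was the 1 chaperone of the 5 that changed. It rose 1.53-fold after water restriction (95% interval 1.28 to 1.84). Hspa5, Hsp90b1, Hspd1 and Hspa8 did not pass the test, and their changes lay between -0.09 and 0.01 on the log2 scale. Of all 15047 tested genes, 8.47% passed, 4.70% higher and 3.77% lower, and 1 of 5 is too small a count to set against those shares. The median absolute log2 fold change was 0.07 for the 5 chaperones and 0.10 for all tested genes.

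**Figure D1:**
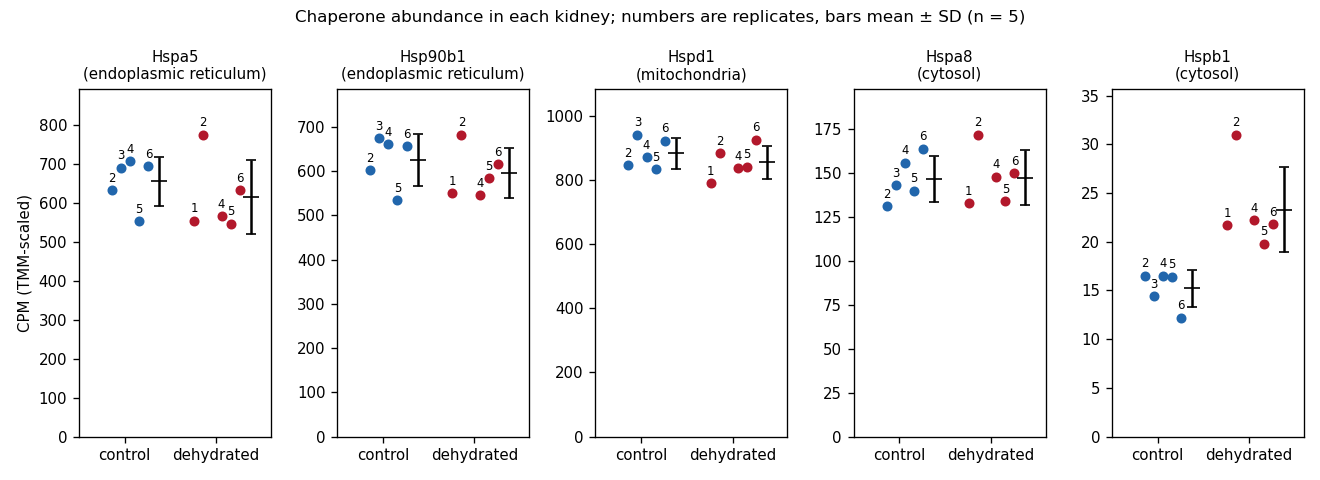
CPM (counts relative to the library total, TMM-scaled) of each chaperone in every kidney, with control in blue and dehydrated in red; numbers are replicate numbers and bars give the mean ± SD (n = 5). The Hspb1 values of the 5 dehydrated kidneys (19.8 to 31.0 CPM) all lie above those of the 5 controls (12.2 to 16.5 CPM), while the groups overlap for the other 4 genes.

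Hspb1 (ENSRNOG00000023546) lies on chromosome 12, 23839399 to 23841049, minus strand, of Rnor_6.0, with 3 exon ranges and 879 bp of exons. Control replicates 2, 3, 4, 5 and 6 had 16.5, 14.4, 16.5, 16.4 and 12.2 CPM, from 356 to 578 fragments. Dehydrated replicates 1, 2, 4, 5 and 6 had 21.7, 31.0, 22.2, 19.8 and 21.8 CPM, from 655 to 1024 fragments. Every dehydrated kidney thus lay above every control, a separation seen in either direction for 7.87% of all tested genes and upward for 4.39%. Dehydrated replicate 2 stood highest, and the other 4 dehydrated kidneys had 19.8 to 22.2 CPM.

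Controls averaged 15.2 ± 1.89 CPM and dehydrated kidneys 23.3 ± 4.40 CPM (SD, n = 5). On the log2 scale the rise was 0.62 with an SE of 0.12 (edgeR adjusted p = 0.007 over all tested genes). It was 0.49 (adjusted p = 0.009) without dehydrated replicate 2 and 0.57 (adjusted p = 0.025) without both libraries numbered 6. With those libraries exchanged between the groups it was 0.32 and not called (adjusted p = 0.555). The authors' deposited table, made with DESeq2, gives Hspb1 a log2 fold change of 0.618 (SE 0.127, adjusted p = 4.6e-05). Refitting DESeq2 with the groups as titled matched that deposited table by the authors within 1e-06 in log2 fold change for all 15284 of its genes, and refitting with the exchanged libraries matched 0.

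The rise of Hspb1 was of moderate size among the responding genes. Of the 707 genes called higher, 248 had a larger log2 fold change, and their median was 0.47. Of all tested genes, 4.98% had an absolute log2 fold change at least that of Hspb1. Counting error, 3.12% to 5.30% of a library's value at these counts, was below the spread between kidneys. The coefficient of variation between kidneys was 12.4% in control and 18.9% in dehydrated rats. Hspb1 also varied more than most genes of its level. Its SD within groups was 0.22 on the log2 scale, above that of 458 of the 500 tested genes nearest in mean CPM.

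Hspa5, also called BiP or GRP78, is the Hsp70 of the endoplasmic reticulum lumen and a sensor-binding regulator of the unfolded protein response. The gene (ENSRNOG00000018294) lies on chromosome 3, 13838304 to 13842762, plus strand, with 9 exon ranges and 2562 bp of exons. Control replicates 2 to 6 in order had 633, 690, 706, 553 and 693 CPM. Dehydrated replicates 1, 2, 4, 5 and 6 had 554, 775, 565, 546 and 633 CPM.

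Both the highest kidney (replicate 2) and the lowest (replicate 5) were dehydrated, so the groups overlapped fully. Mean levels were 655 ± 63.6 and 614 ± 95.9 CPM (SD, n = 5). The change was -0.09 on the log2 scale with an SE of 0.10 (edgeR adjusted p = 0.680), and its 95% interval ran from -19.2% to 8.9%. Without dehydrated replicate 2 the change was -0.19 and not called (edgeR adjusted p = 0.225). Hspa5 varied more between kidneys than most genes of its level: its SD within groups was 0.18 on the log2 scale, above that of 444 of the 500 tested genes nearest to it in mean CPM.

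Hsp90b1, or GRP94, is the Hsp90 of the endoplasmic reticulum and folds secreted and membrane proteins such as integrins and Toll-like receptors. The gene (ENSRNOG00000026963) lies on chromosome 7, 27226569 to 27240533, minus strand, with 21 exon ranges and 3195 bp of exons. Control replicates 2 to 6 had 602, 674, 661, 534 and 656 CPM. Dehydrated replicates 1, 2, 4, 5 and 6 had 551, 683, 546, 584 and 616 CPM.

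As for Hspa5, dehydrated replicate 2 was the highest kidney and control replicate 5 was the lowest of its group. Mean levels were 625 ± 58.2 and 596 ± 56.2 CPM (SD, n = 5). The change was -0.07 on the log2 scale with an SE of 0.08 (edgeR adjusted p = 0.698), and its 95% interval ran from -15.4% to 7.3%. It was -0.12, and not called, without control replicate 5 (edgeR adjusted p = 0.363) or without dehydrated replicate 2 (0.444).

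Hspd1, or Hsp60, forms the folding chamber of the mitochondrial matrix together with its lid, Hspe1. The gene (ENSRNOG00000014525) lies on chromosome 9, 61680530 to 61690956, minus strand, with 12 exon ranges and 2227 bp of exons. Control replicates 2 to 6 had 846, 942, 872, 833 and 923 CPM. Dehydrated replicates 1, 2, 4, 5 and 6 had 790, 884, 838, 842 and 926 CPM.

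Hspd1 was the steadiest of the 5 genes, and its highest kidney exceeded its lowest by 19.3%. Mean levels were 883 ± 47.6 and 856 ± 51.3 CPM (SD, n = 5). The change was -0.05 on the log2 scale with an SE of 0.06 (edgeR adjusted p = 0.748). The 95% interval, -11.4% to 6.0%, was the narrowest of the 5. Its SD within groups was 0.08 on the log2 scale, against a median of 0.11 for the 500 genes nearest in level.

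Hspa8, or Hsc70, is the constitutive Hsp70 of the cytosol, which folds new proteins, uncoats clathrin vesicles and feeds chaperone-mediated autophagy. The gene (ENSRNOG00000034066) lies on chromosome 8, 44990014 to 44993179, plus strand, with 9 exon ranges and 1938 bp of exons. Control replicates 2 to 6 had 131, 143, 156, 140 and 164 CPM. Dehydrated replicates 1, 2, 4, 5 and 6 had 133, 172, 148, 134 and 150 CPM.

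The group means of Hspa8 were 147 ± 12.9 and 147 ± 15.5 CPM (SD, n = 5). The change was 0.01 on the log2 scale with an SE of 0.08 (edgeR adjusted p = 0.981), and its 95% interval ran from -0.16 to 0.18 on that scale. Its sign changed with single libraries left out, between -0.05 and 0.05. Hspa8 and Hspd1 have near-identical processed copies elsewhere in rodent genomes, so their counts are uncertain where fragments could not be placed. Overlapping Hspa8 on its strand are 3 short genes, which took 66, 121 and 209 fragments over the 10 libraries, and 1 short gene with 0 fragments overlaps Hsp90b1.

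**Figure D2:**
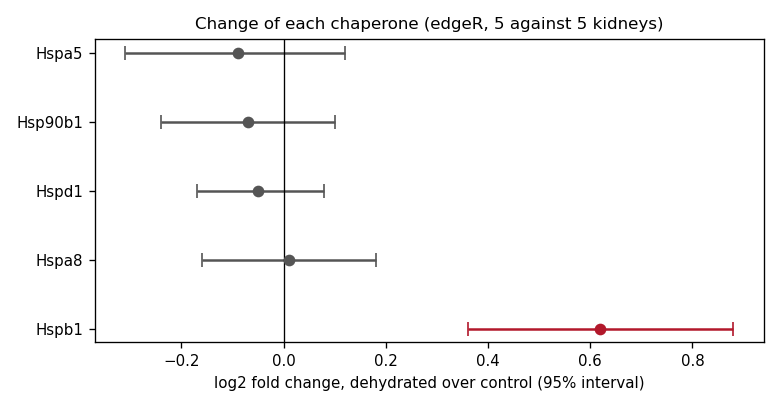
Log2 fold change of each chaperone, dehydrated over control, with its 95% interval from edgeR (5 against 5 kidneys); the vertical line marks no change. The interval of Hspb1 (0.36 to 0.88, red) lies above 0, and the intervals of the other 4 genes (gray) include 0 and end below 0.20.

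Levels were compared between genes per kilobase of exon. Hspd1 was the most abundant of the 5, with 397 ± 21.4 CPM per kb in controls and 384 ± 23.0 after water restriction (SD, n = 5), at rank 233 of the tested genes. Hspa5 followed with 256 ± 24.8 and 240 ± 37.4 CPM per kb, and Hsp90b1 with 196 ± 18.2 and 186 ± 17.6. Hspa8 stood at 75.7 ± 6.65 and 76.0 ± 8.02 CPM per kb. Hspb1 was lowest, at 17.3 ± 2.15 in control and 26.5 ± 5.00 in dehydrated kidneys. This order held in each of the 10 libraries. Over all libraries only Hspa5 (213 to 302 CPM per kb) and Hsp90b1 (167 to 214) overlapped, and within each kidney Hsp90b1 had 0.71 to 0.86 of the Hspa5 level.

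Whether Hspb1 changed differently from the other chaperones was tested within each kidney, by the log2 ratio of their levels per kb. The ratio to Hspa8 was 0.276, 0.222, 0.233, 0.258 and 0.164 in control replicates 2 to 6. It was 0.361, 0.398, 0.331, 0.324 and 0.322 in dehydrated replicates 1, 2, 4, 5 and 6. The log2 ratio rose by 0.61 against Hspa8, 0.66 against Hspd1, 0.68 against Hsp90b1 and 0.71 against Hspa5. The groups did not overlap in any of the 4 ratios (exact two-sided permutation test over 252 assignments, p = 0.0079 each, the smallest this design can give, and adjusted p = 0.020 over the 10 pairs of chaperones). All 4 ratios share Hspb1, which was already called in these same libraries, so these tests restate that rise and add no independent support. The adjusted p rests on the 4 tests being tied at the smallest p. Without both libraries numbered 6 the 4 rises were 0.52 to 0.64, with an adjusted exact p of 0.071, where the smallest exact p for 4 against 4 kidneys is 0.029.

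**Figure D3:**
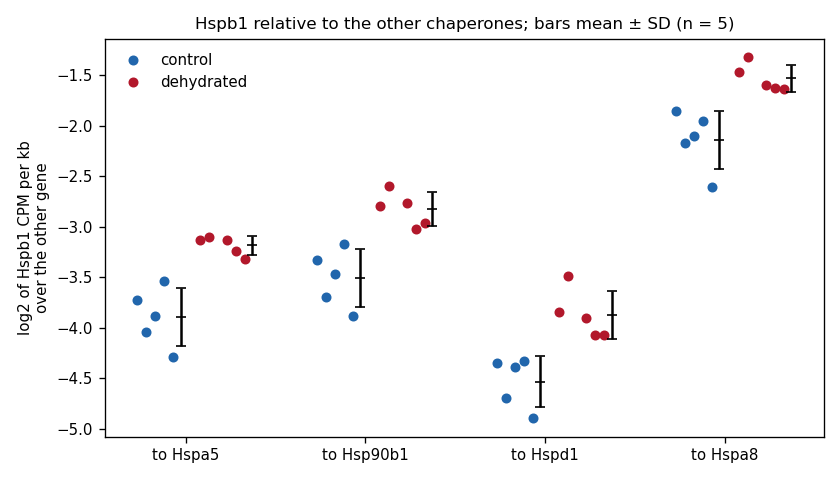
Log2 of the Hspb1 level (CPM per kb) over that of Hspa5, Hsp90b1, Hspd1 or Hspa8 in the same kidney, control in blue and dehydrated in red, with the mean ± SD (n = 5). In each of the 4 ratios all dehydrated kidneys lie above all control kidneys, by 0.61 to 0.71 on average.

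The other 6 ratios, among Hspa5, Hsp90b1, Hspd1 and Hspa8, differed between the groups by -0.10 to -0.02 on the log2 scale, and none passed the exact permutation test (adjusted p of 0.317 to 0.690). The ratio of Hspa5 to Hsp90b1 was the steadiest in control kidneys, with an SD of 0.02 on the log2 scale. In dehydrated kidneys it was not the steadiest. Its SD there was 0.10, against 0.09 for Hspa5 to Hspa8, Hsp90b1 to Hspd1 and Hsp90b1 to Hspa8.

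The 2 chaperones of the endoplasmic reticulum varied together from kidney to kidney by Pearson's r, which was lower for the other pairs. On ranks this pair did not pass and was not the strongest. With group means removed, log2 CPM of Hspa5 and Hsp90b1 had Pearson's r = 0.94 over the 10 kidneys (exact permutation within groups, 14400 arrangements, p = 0.0024, adjusted p = 0.024 over 10 pairs). Spearman's rho on ranks within groups was 0.65 (same permutation, adjusted p = 0.182). It was higher, 0.85, for Hspa5 with Hspa8 and for Hsp90b1 with Hspd1 (same permutation, adjusted p = 0.047 each). Without the kidneys farthest from the median, dehydrated replicate 2 and control replicate 5, r was 0.89. Leaving out single kidneys gave r of 0.92 to 0.97, with an adjusted permutation p of up to 0.080, and leaving out both libraries numbered 6 gave 0.93 (adjusted permutation p = 0.150). The 10 points share library scaling, and no cause of their spread was tested.

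**Figure D4:**
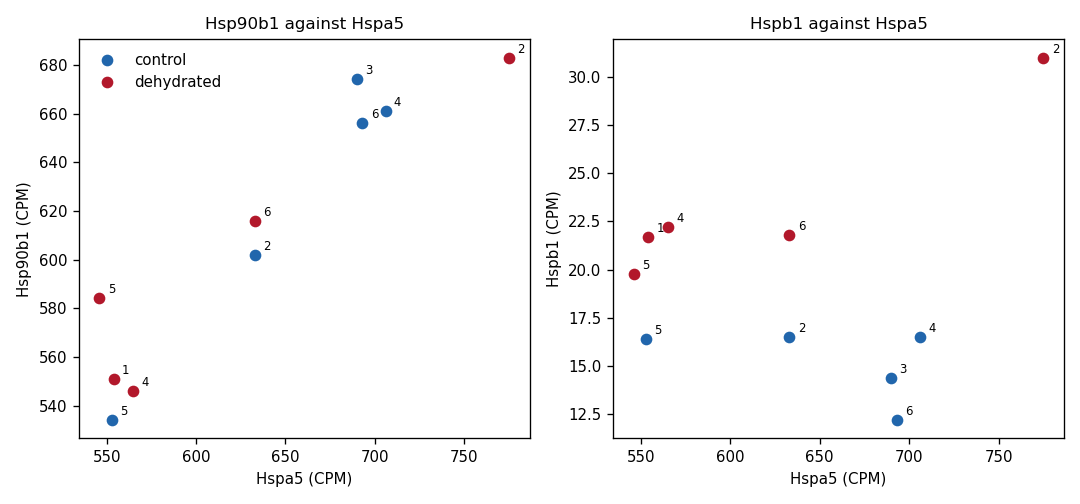
CPM of Hsp90b1 (left) and Hspb1 (right) against CPM of Hspa5 in the 10 kidneys, control in blue and dehydrated in red, numbers being replicates. On the left kidneys with more Hspa5 tend to have more Hsp90b1 in both groups, with dehydrated replicate 5 (546 and 584 CPM) above the others of its Hspa5 level, and on the right all dehydrated kidneys lie above all controls.

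Without centring, Hsp90b1 ranked first of 15046 genes in likeness to Hspa5, and Hspa5 ranked first in likeness to Hsp90b1 (r = 0.94 each, n = 10 libraries). With single libraries left out these uncentred ranks ran from 1 to 20 and from 1 to 6, and they were 20 and 6 without dehydrated replicate 2. With group means removed the pair ranked 4th and 2nd. These centred ranks ran from 1 to 29 and from 1 to 27 with single libraries left out, and were 29 and 27 without dehydrated replicate 1 and 23 and 17 without dehydrated replicate 2. Hspa8 and Hspa5 had a centred r of 0.81 (exact permutation, adjusted p = 0.056) and a rho of 0.85 (adjusted p = 0.047). Hspd1 and Hsp90b1 had an r of 0.76 (adjusted p = 0.065) and a rho of 0.85 (adjusted p = 0.047). Without centring, Hspa8 ranked 104th in likeness to Hspa5 and Hspd1 ranked 113th in likeness to Hsp90b1. Centred r was 0.66 for Hspa5 and Hspd1, 0.68 for Hsp90b1 and Hspa8, and 0.59 for Hspd1 and Hspa8. None of these passed (exact permutation, adjusted p of 0.121 to 0.167).

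For Hspb1 no correlation with the other 4 genes passed the test when both groups were pooled. Its centred r was 0.45 with Hspa5, 0.29 with Hspa8, 0.21 with Hsp90b1 and -0.13 with Hspd1 (exact permutation, adjusted p of 0.309 to 0.754). With the 2 farthest kidneys left out, r with Hspa5 was 0.14. The log2 ratio of Hspb1 to Hspa5 had an SD of 0.29 in control and 0.09 in dehydrated kidneys. Dehydrated replicate 2 lay above its group mean in both genes, by 0.43 for Hspb1 and 0.35 for Hspa5 in log2 CPM. A relation within 1 group was not tested. The gene most like Hspb1 over the 10 libraries was ENSRNOG00000058388 (chromosome 1, 85380088 to 85382569, plus strand), with r = 0.976. That r was taken without removing group means, so a gene chosen by it shares the group difference of Hspb1 by construction, and its means of 29.4 CPM in controls and 46.6 CPM in dehydrated kidneys are given as a description. The genes outside the group most like Hspa5, Hsp90b1, Hspd1 and Hspa8 had uncentred r of 0.933, 0.912, 0.987 and 0.949.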

How the data were processed

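Fragment counts per Ensembl gene were deposited by the authors without normalisation, made with featureCounts 1.6.2 on paired-end reads with strand setting 2 and the Ensembl 103 annotation of Rnor_6.0, per the file headers, with aligner settings not given in the sources used here. In addition, the authors' deposited table of log2 fold changes, p-values and adjusted p-values comes from DESeq2, as the submitters' processing notes state, and 10 columns of per-library values in it were not used. Its values describe the authors' comparison only.

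Counts were tested with edgeR 4.0.16 in R 4.3.3 (quasi-likelihood F-test, TMM scaling, filterByExpr with minimum count 10 and total 15, Benjamini-Hochberg over 15047 genes, threshold 0.05). An SE is the absolute log2 fold change over the square root of F, and 95% intervals use it. DESeq2 1.42.0 and limma 3.58.1 (voom) were alternatives, as were other scaling, no filter, left-out or exchanged libraries and a replicate block. Log2 CPM used a prior count of 2. The fit was tested on simulated counts. Ratios and correlations were computed in Python 3.11.15. No replicate libraries agreed within counting noise (chi-square per degree of freedom of 13.3 or more in 20 pairs). Percentages given as counting error cover counting only, while the edgeR 95% intervals include the spread between kidneys.

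All 5 members are named, and for each the gene most like it in log2 CPM. The members, lists and this rule were chosen with earlier results of these data known. Identifiers are paired with symbols for 0 genes in the reference table, so member symbols follow the given rule, and planned lists of chaperones, hypertonicity genes and cell type markers were not analysed. Same-numbered libraries of the 2 groups deviated together with r of -0.05 to 0.14.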

Additional observations from a re-analysis of the deposited data

Results flagged for a closer look

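Hspb1 stood at 31.0 CPM in dehydrated replicate 2, against 19.8 to 22.2 CPM in the rest of that group. The gap to the nearest kidney was 0.79 of the range of the group, beyond Dixon's 95% limit for 5 values. Among the 10 sets of 5 values examined no other gap was as wide, and chance alone flags roughly 1 set in 20. The same kidney was the highest dehydrated one for Hspa5 (775 CPM), Hsp90b1 (683 CPM) and Hspa8 (172 CPM), with gaps of 0.62, 0.49 and 0.56 of the range. For Hspd1 the highest was dehydrated replicate 6 (926 CPM).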

How the results depend on the processing

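Hspb1 kept its direction and its call under the 16 alternatives with groups as titled, at 0.49 (without dehydrated replicate 2) to 0.67 on the log2 scale and an adjusted p of at most 0.025. In these fits 1 of the 5 chaperones was called. Exchanging the libraries numbered 6 gave Hspb1 0.32, 0 chaperones called and, in edgeR, 0 genes changed (0 higher, 0 lower), while 1654 genes and 0 chaperones had an unadjusted p below 0.05. DESeq2 called 75 genes and limma voom 0 after the exchange, which mixes the groups if the titles are right. The 1275 changed genes (707 higher, 568 lower) became 772 (431 higher, 341 lower) with the replicate block, a fit on 4 pairs, in which Hspb1 had 0.61 (adjusted p = 0.018) and Hspd1 turned to 0.01. Of the 4 shared numbers 1 had an r above 0.1, so the numbers were not taken as pairs. Without both libraries numbered 6, 461 genes were higher. Leaving out 1 library gave 879 to 1382 changed genes, with 485 to 763 higher ones and 378 to 619 lower ones (378 without control replicate 4), and Hspa8 between -0.05 and 0.05.

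The tests of ratios and correlations between members were not among the planned results, and their alternatives were chosen after the data were seen. With 1 library left out the rise of Hspb1 over another chaperone was 0.49 to 0.80 (adjusted exact permutation p of at most 0.040), and the Hspa5 to Hsp90b1 ratio changed by -0.07 to 0.00, ending at 0.00 without dehydrated replicate 5. With the libraries numbered 6 exchanged the rise was 0.22 to 0.32 and did not pass.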

Other observations

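For each chaperone the upstream gene on the opposite strand with the nearest annotated start was looked up after the data were seen. Those of Hspa5 and Hspa8 did not pass the filter on low counts. That of Hspb1 (ENSRNOG00000023366), 113525 bp away, changed the other way, by -0.45 on the log2 scale with an SE of 0.13 (edgeR adjusted p = 0.045), and had r = -0.49 with Hspb1 in log2 CPM over the 10 libraries. The one 343 bp from Hsp90b1 changed by -0.02 (adjusted p = 0.961) and had r = 0.63 with it. The gene 1198 bp from Hspd1 is ENSRNOG00000051624 (chromosome 9, 61692154 to 61694599, Rnor_6.0). Controls averaged 276 ± 18.4 CPM and dehydrated kidneys 258 ± 27.4 CPM (SD, n = 5), and the change of -0.10 on the log2 scale, with an SE of 0.08, was not called (edgeR adjusted p = 0.528). Its log2 CPM had r = 0.78 with Hspd1 over the 10 libraries, which share their scaling. In the RefSeq order of GRCr8 the gene beside Hspd1 on that side and strand is Hspe1, the lid of the Hspd1 chamber. No source used here pairs the Ensembl identifier with that symbol. The promoter window of Hspe1 holds 2 matches to the 3-unit heat shock element, and whether they are the same bases as those of Hspd1 was not tested.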
